A study of Mus musculus with 10 samples.

Results

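The regions described here are the stretches of 3000 bases upstream of processed pseudogenes, in which RNA of the strand opposite to the pseudogene was counted. A region was taken when the gene downstream of it carries the GENCODE biotype processed_pseudogene, matched by Ensembl gene ID without its version, and 5869 of the 30166 upstream regions in the study met this rule. Testes of mice at postnatal day 4 were sequenced, with 5 libraries from *Dis3* cKO mice and 5 libraries from control mice, each made from the 2 testes of 1 mouse. The *Dis3* cKO mice were *Dis3* F/-; *Ddx4-Cre*, in which exons 4 to 6 of the floxed allele are removed where the Cre is active, and the controls, labelled *Dis3* WT, were siblings. The labels give the strain of all mice as B6D2F1. *Ddx4-Cre* acts in germ cells, so the somatic cells of a *Dis3* cKO testis keep the floxed allele beside the inactive - allele. RNA of whole testes holds both kinds of cell. Effects of the loss in germ cells and of the inactive allele in somatic cells cannot be told apart in it. In such bulk RNA, fewer cells of a type and less RNA per cell cannot be told apart.

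Active promoters commonly fire in both directions. The short transcripts that leave them backwards, called PROMPTs (promoter upstream transcripts), are degraded in the nucleus by the RNA exosome, of which DIS3 is a catalytic ribonuclease. A processed pseudogene is a copy of a spliced mRNA that was written back into the genome by reverse transcription. Such a copy lands without the promoter of its parent gene, so the stretch in front of it is usually plain intergenic DNA. Reads over these regions therefore serve as a measure of the background of antisense and intergenic reads in each library.

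The windows printed next show what lies at the annotated start of a few of these pseudogenes, beside the starts of coding genes. Only pseudogenes with a RefSeq start window could be shown, and whether they are typical of the 5869 was not tested. They are RefSeq windows of 300 bases on GRCm38.p6, with 250 bases before and 50 bases after the annotated start, written 5′ to 3′ with every CpG in capitals. RefSeq has a window that meets the end of the counted region, to within 300 bases, for 17 of the pseudogenes, and for 3 of these the first 250 bases lie exactly at the end of the region. Those 3 are *Gm32936* (chr12:60317638-60317937, plus strand), *Gm5955* (chr12:88124416-88124715, plus strand) and *Gm34396* (chr16:89183065-89183364, plus strand). They are set beside 2 coding genes that start just past a pseudogene whose region was called higher in *Dis3* cKO testes, *Mtr* (chr13:12258064-12258363, minus strand), which encodes methionine synthase, and *Rfesd* (chr13:76018557-76018856, minus strand), for which the outermost of its RefSeq starts was taken. These windows were chosen after values were seen.
Gm32936: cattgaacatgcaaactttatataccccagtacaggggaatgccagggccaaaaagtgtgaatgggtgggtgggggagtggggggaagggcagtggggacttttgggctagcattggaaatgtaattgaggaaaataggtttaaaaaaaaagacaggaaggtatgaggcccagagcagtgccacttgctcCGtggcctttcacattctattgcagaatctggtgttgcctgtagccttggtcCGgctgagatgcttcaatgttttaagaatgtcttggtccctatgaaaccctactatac
Gm5955: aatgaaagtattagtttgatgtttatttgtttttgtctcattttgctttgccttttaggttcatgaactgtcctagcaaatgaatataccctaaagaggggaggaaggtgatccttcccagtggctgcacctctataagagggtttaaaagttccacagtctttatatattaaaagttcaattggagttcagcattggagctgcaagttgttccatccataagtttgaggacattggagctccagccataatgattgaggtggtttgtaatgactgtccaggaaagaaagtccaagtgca
Gm34396: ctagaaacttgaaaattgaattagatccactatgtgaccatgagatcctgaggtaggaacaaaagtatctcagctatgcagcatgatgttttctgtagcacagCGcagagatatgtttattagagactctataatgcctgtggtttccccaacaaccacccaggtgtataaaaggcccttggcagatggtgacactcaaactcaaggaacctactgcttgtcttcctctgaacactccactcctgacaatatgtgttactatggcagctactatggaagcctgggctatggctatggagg
Mtr: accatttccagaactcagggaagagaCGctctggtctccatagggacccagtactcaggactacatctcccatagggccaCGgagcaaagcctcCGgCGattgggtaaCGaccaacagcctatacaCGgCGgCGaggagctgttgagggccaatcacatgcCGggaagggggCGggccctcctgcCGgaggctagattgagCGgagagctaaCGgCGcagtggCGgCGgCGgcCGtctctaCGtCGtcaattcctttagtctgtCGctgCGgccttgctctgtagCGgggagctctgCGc
Rfesd: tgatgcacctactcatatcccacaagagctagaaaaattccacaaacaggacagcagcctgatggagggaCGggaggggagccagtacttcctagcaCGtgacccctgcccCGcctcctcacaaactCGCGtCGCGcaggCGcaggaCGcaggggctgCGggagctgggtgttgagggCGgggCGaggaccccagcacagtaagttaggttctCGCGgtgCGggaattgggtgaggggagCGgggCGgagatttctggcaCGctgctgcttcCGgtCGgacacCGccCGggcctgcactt
The pseudogene windows held 2, 0 and 1 CpG in *Gm32936*, *Gm5955* and *Gm34396*, against 24 in *Mtr* and 22 in *Rfesd*. The 50 bases after the annotated start open with ATG in all 3 pseudogene windows printed, and in neither coding window. The windows may thus set starts of reading frames beside starts of transcription, which was not tested. Over the 17 pseudogene windows the median was 3 CpG (range 0 to 15) at a median GC content of 44.3%, against 13 CpG and 56.3% over 7778 windows of coding genes that have an upstream region. At least 10 CpG were present in 1 of the 17 pseudogene windows (5.88%), against 58.3% of the coding windows. Among the letters searched on both strands, GCGCG was in 5.88% of the pseudogene windows, 40.3% of the coding windows and 29.7% of all 32851 windows. TATAAA was in 23.5% of the pseudogene windows, 13.3% of the coding windows and 13.6% of all windows. AATAAA was in 47.1% of the pseudogene windows, 15.7% of the coding windows and 19.6% of all windows. Both of these end in the same 5 letters, but a stretch that matches one does not match the other. GGTAAG was in 0 of the 17 pseudogene windows, 8.63% of the coding windows and 9.67% of all windows. With 17 windows these shares describe the windows and no more.

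The targeted gene was examined first. *Dis3* had 1385, 1372, 1362, 1641 and 1709 normalized counts in the *Dis3* cKO libraries, against 4115, 4296, 4314, 5161 and 5091 in the control libraries. The groups did not overlap, and *Dis3* fell by 1.62 on the log2 scale (SE 0.09, adjusted p = 3.78e-07, edgeR's quasi-likelihood test with Benjamini-Hochberg adjustment). The libraries held 28538849 to 37739906 gene counts in *Dis3* cKO and 35391042 to 41104912 in control. Of the germ cell markers, *Dazl* fell by 0.67 (adjusted p = 0.00292 by the same edgeR test), whereas *Ddx4*, *Sall4* and *Zbtb16* did not pass the test and *Dppa3*, at 0 to 1.23 normalized counts in *Dis3* cKO and 0.959 to 7.46 in control, was too low to be tested. Among 17 somatic and blood cell markers *Cyp17a1* of Leydig cells fell by 0.40 (adjusted p = 0.0271 by edgeR), and *Myh11* of myoid cells and *Cdh5* of endothelium rose by 0.52 and 0.31 on the log2 scale (adjusted p = 0.0265 and 0.0389), while the others, all 4 Sertoli cell markers included, did not pass the test or were too low for it. Their part in the values of the upstream regions was not tested.

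The summed level over all 5869 regions differed more between mice of one genotype than between the means of the genotypes. It is given as a density, the antisense reads per Mb of region for every 1000000 gene counts after TMM scaling, which corrects for library composition. The density was 49.9, 21.2, 19.1, 33.9 and 33.3 in *Dis3* cKO replicates 1 to 5, against 32.5, 32.6, 23.8, 18.5 and 17.4 in control replicates 1 to 5. The mean was 31.5 ± 12.3 in *Dis3* cKO and 24.96 ± 7.36 in control (SD, n = 5 each), a log2 ratio of group means of 0.33. The groups overlapped, since *Dis3* cKO replicates 2 and 3 lay below control replicates 1 to 3, and *Dis3* cKO replicate 1 stood above every other library. Without *Dis3* cKO replicate 1 the log2 ratio was 0.11. Within replicates 1 to 3 it was 0.02, and within replicates 4 and 5 it was 0.91. The labels name no batch for these numbers, and whether the libraries were prepared together was not tested.

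**Figure D1:**
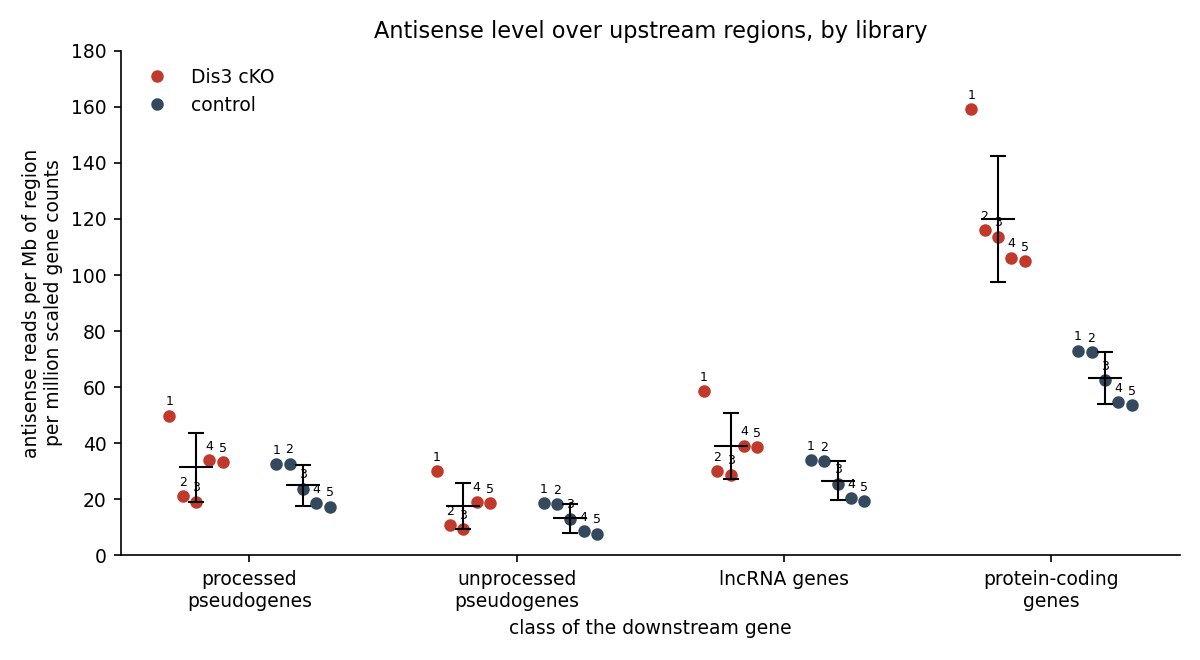
Density of antisense reads (reads per Mb of upstream region for every 1000000 scaled gene counts), by class of the downstream gene, for 5 *Dis3* cKO libraries (red, left) and 5 control libraries (grey, right), with the replicate number above each point and the mean ± SD as bars. The groups overlap for processed pseudogenes (19.1 to 49.9 in *Dis3* cKO, 17.4 to 32.6 in control) and are apart for protein-coding genes (104.9 to 159.2 and 53.6 to 73.0).

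These values come from very few reads per region. The sums behind them were 24681, 13616, 10455, 18693 and 17938 reads in *Dis3* cKO and 21311, 21151, 17310, 11794 and 11538 reads in control. The median region held 3, 1, 0, 2 and 2 reads in the *Dis3* cKO libraries, against 2, 2, 1, 0 and 0 reads in the control libraries. A region upstream of a processed pseudogene was thus often empty in the libraries with the lowest background.

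The share of regions with a read gave a similar order of libraries. With every library thinned to 28538849 gene counts, the expected share of regions with at least 1 read was 77.1%, 48.5%, 45.4%, 60.1% and 62.7% in *Dis3* cKO, against 66.5%, 66.9%, 56.1%, 37.5% and 38.1% in control. The means were 58.8% ± 12.6 in *Dis3* cKO and 53.0% ± 14.5 in control (SD, n = 5 each). The groups overlapped here as well, and the difference of 5.73 percentage points was 1.16 without *Dis3* cKO replicate 1, 1.86 without control replicate 4 and 1.999 without control replicate 5. Unthinned, the shares were 47.4% to 77.1% in *Dis3* cKO and 39.6% to 69.8% in control. In all, 228 of the 5869 regions had no read in any library.

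The reads were not spread evenly over the regions. Over the 4163 regions with a mean below 3 counts, the variance of the counts was 2.26 to 3.44 times their mean in *Dis3* cKO and 2.89 to 3.36 times in control, where reads falling independently at 1 common rate would give equal values. Most regions nevertheless sat in a narrow band. A mean below 1 count was found in 1086 regions (18.5%), a mean from 1 to below 3 in 3077 (52.4%), from 3 to below 10 in 1606 (27.4%), from 10 to below 50 in 81 (1.38%), and of 50 or more in 19 (0.324%). The 10 highest regions held 9.58% of the reads of the class and the 100 highest held 21.3%.

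A measure from the other strand and from other loci gave nearly the same order of libraries. Olfactory receptor genes encode odorant receptors of the nose and form a large gene family. Whether any of them is transcribed in these testes was not tested. The sense reads over the exons of 1194 of them came to a density of 44.5, 14.5, 12.2, 32.0 and 29.6 reads per Mb of exon in *Dis3* cKO replicates 1 to 5, against 28.7, 29.8, 18.8, 13.6 and 12.5 in control replicates 1 to 5. No library changed its place among the 10 by more than 2 between the olfactory receptor exons and the pseudogene regions, and both measures are scaled by the same gene counts. The vomeronasal receptor genes, 345 in number, gave 14.4 to 41.0 in *Dis3* cKO and 14.02 to 29.8 in control. The regions upstream of 1659 unprocessed pseudogenes, which arise by duplication of a gene in place and not through RNA, gave 30.1, 10.8, 9.34, 19.2 and 18.6 in *Dis3* cKO, against 18.6, 18.3, 13.1, 8.54 and 7.74 in control. The density was thus lower there than over the processed pseudogene regions in every library, and the order of the libraries again differed by at most 2 places.

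**Figure D2:**
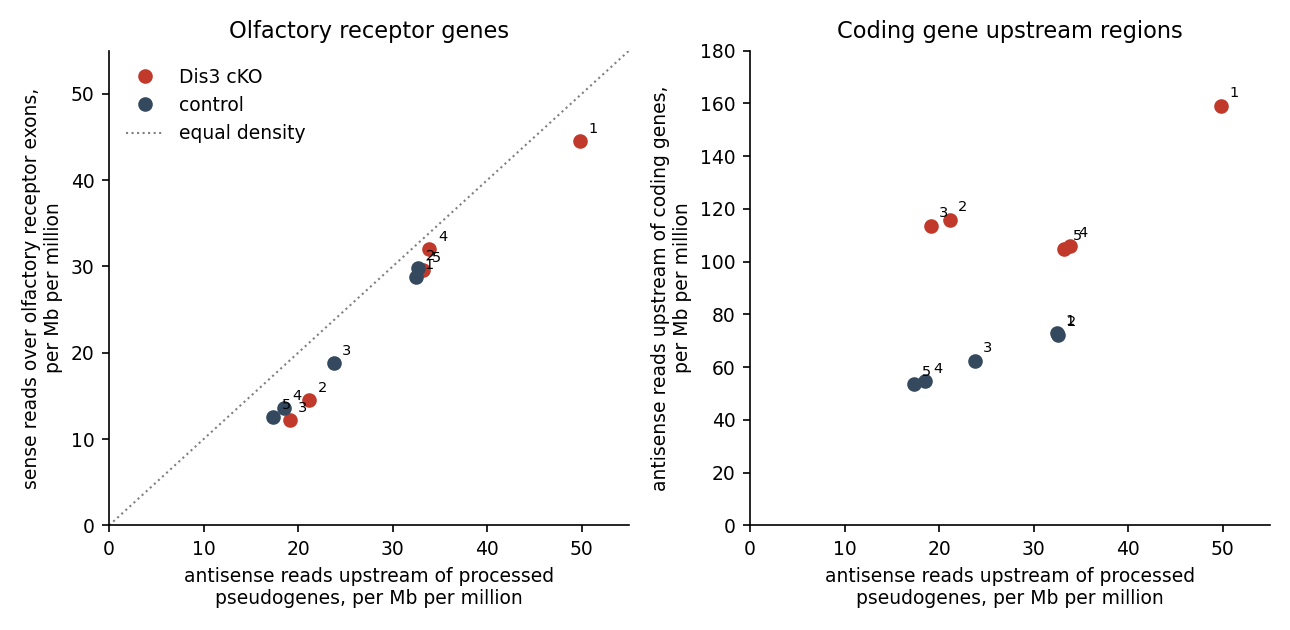
Each point is 1 library, red for *Dis3* cKO and grey for control, with its replicate number. The horizontal axes give the density of antisense reads upstream of processed pseudogenes, and the vertical axes give the density of sense reads over olfactory receptor exons (left, with a dotted line of equal density) and of antisense reads upstream of coding genes (right), all in reads per Mb for every 1000000 scaled gene counts. On the left both genotypes lie along 1 course below the line, and on the right every *Dis3* cKO library (104.9 to 159.2) lies above every control library (53.6 to 73.0).

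Set against this background, the regions upstream of coding genes were higher in every *Dis3* cKO library. Coding regions had an antisense density of 159.2, 115.9, 113.6, 106.1 and 104.9 in *Dis3* cKO, against 73.0, 72.4, 62.5, 54.6 and 53.6 in control. After subtraction of the density over processed pseudogene regions in the same library, 109.4, 94.7, 94.5, 72.2 and 71.6 remained in *Dis3* cKO, against 40.5, 39.7, 38.6, 36.1 and 36.3 in control. The control libraries, which spread from 53.6 to 73.0 before the subtraction, lay between 36.1 and 40.5 after it. As a ratio to the pseudogene regions, the coding level was 3.19, 5.48, 5.94, 3.13 and 3.15 in *Dis3* cKO, against 2.24, 2.22, 2.62, 2.95 and 3.09 in control. The groups were apart on this scale too, but *Dis3* cKO replicates 4 and 5 stood only just above control replicate 5. For the lncRNA regions 8.65, 8.95, 9.63, 5.25 and 5.23 remained after subtraction in *Dis3* cKO, against 1.35, 0.914, 1.75, 1.91 and 1.97 in control. The control density over lncRNA regions thus stood little above that over all processed pseudogene regions. It was 33.9, 33.6, 25.5, 20.4 and 19.3 in control replicates 1 to 5. Without the 10 highest processed pseudogene regions, their control density was 29.8, 29.6, 21.5, 15.8 and 14.9. Over unprocessed pseudogene regions it was 18.6, 18.3, 13.1, 8.54 and 7.74. What remains after subtraction thus depends on the regions taken as background. No p is given for these sums.

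The test of single regions was fitted over the whole table, in which 12345 regions averaged 3 counts or more over the libraries. The filter left 1706 of the 5869 processed pseudogene regions (29.1%). Of these, 17 were called higher in *Dis3* cKO (0.996%) and 1 was called lower (0.0586%), at an adjusted p under 0.05 by edgeR's quasi-likelihood test with Benjamini-Hochberg adjustment. Over all regions tested 13.6% were called higher and 0.0486% lower. At an unadjusted p under 0.05, 62 were higher and 9 lower, against 2597 and 35 of the 12345. DESeq2 called 28 higher and 3 lower, against 15.9% of all regions called higher. Scaling by the TMM-scaled totals of the upstream regions in place of the gene counts turned the split to 2 higher and 18 lower. Such scaling sets the bulk of the regions near no change. The median log2 fold change over all regions was then -0.02, and 5.49% of them were called higher. Without *Dis3* cKO replicate 1 there were 10 higher and 3 lower, against 11.6% of all regions called higher. Without *Dis3* cKO replicate 2 or control replicate 4 there were 2 lower. The share called higher was 1.05% for unprocessed pseudogenes (3 of 287), 5.45% for lncRNA genes (79 of 1449) and 20.8% for coding genes (1522 of 7315). No test of the difference between these shares was made. The classes also differed in level, and 1606 of the 1706 pseudogene regions had a mean below 10 counts. Among regions with a mean from 10 to below 50 counts, 5 of 81 pseudogene regions (6.17%) were called higher, against 1092 of 2387 coding regions.

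The median log2 fold change of the 1706 tested regions was 0.34, against 0.64 over all tested regions and 0.84 over coding regions. A positive fold change was fitted for 1143 and a negative one for 563. The 81 regions with a mean from 10 to below 50 counts had a median of 0.12 and the 19 at 50 or more had a median of 0.11, while the 1606 lower ones had 0.35. The median was 0.06 without *Dis3* cKO replicate 1, -0.05 within replicates 1 to 3 and 1.07 within replicates 4 and 5. When the counts were scaled by the sum over the pseudogene regions themselves, the 10 highest left out, an alternative chosen after seeing the data, the median was -0.02, and 8 regions were called higher and 2 lower. That scaling moved the median of all regions to 0.32 and left 7.18% of them called higher.

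**Figure D3:**
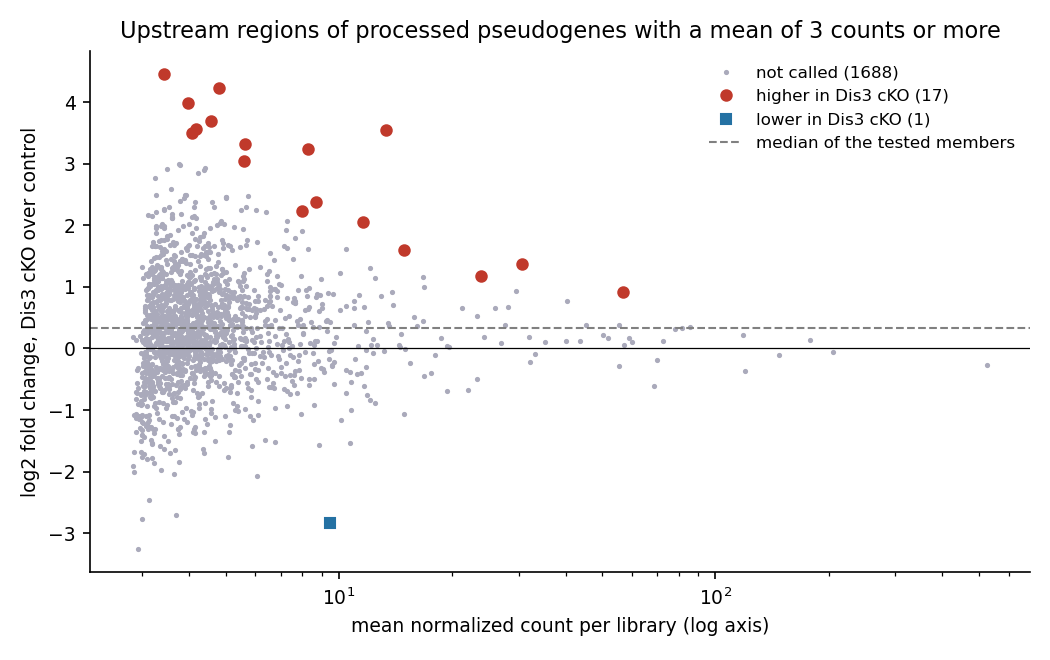
Log2 fold change of *Dis3* cKO over control (vertical axis) against the mean normalized count per library (horizontal log axis) for the 1706 tested regions upstream of processed pseudogenes. The 17 called higher (red) are mostly regions with few counts, the 1 called lower is the blue square, and the dashed line is the median of 0.34.

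None of the 17 regions called higher met the rule for naming an increase, which asked for 20 normalized counts or more on average and for groups that do not overlap. So all 17 were taken up after their values were seen. Their mean level ran from 3.44 to 56.9 normalized counts, the groups did not overlap in 8 of them, and 15 had a read in every *Dis3* cKO library. Among all tested regions every *Dis3* cKO library lay above every control library in 11.1%, and among the tested pseudogene regions in 0.938% (16 regions).

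The clearest case was the region upstream of *Gm47021* (chr13:12260271-12263270, minus strand). It held 19.8, 33.2, 15.7, 17.7 and 37.4 normalized counts in *Dis3* cKO, against 0.932, 2.83, 4.199, 0.959 and 0.919 in control. The groups did not overlap, and the log2 fold change was 3.55 (SE 0.63, adjusted p = 6.77e-07 by edgeR, exact permutation p = 0.00794, the smallest possible with 5 against 5). This call held under all 20 alternatives that were fitted for it, with fold changes from 3.36 to 4.03 when 1 library was left out. The start of *Mtr*, whose window is printed earlier, lies 2158 bases past the near edge of the region on the strand of the pseudogene. RNA leaving that start backwards would run towards the region. Whether the reads came from such a start was not tested, here or for the other regions with this layout. *Mtr* has no upstream region of its own in the table. Its mRNA, at 4813 ± 289 normalized counts in *Dis3* cKO and 4622 ± 560 in control (SD, n = 5 each), changed by 0.06 in the fit (log2 scale, adjusted p = 0.727 by edgeR), which did not pass the test.

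The region upstream of *Gm4165* (chr13:76020111-76023110, minus strand) has the same layout, with the start of *Rfesd* 1392 bases past its edge. It held 21.0, 19.9, 21.2, 19.9 and 30.6 normalized counts in *Dis3* cKO, against 4.66, 6.60, 7.56, 4.79 and 12.9 in control. Every *Dis3* cKO library was above every control library (log2 fold change 1.61, SE 0.52, adjusted p = 0.0188 by edgeR), although the call was lost without *Dis3* cKO replicate 5, where the fold change was 1.47. RefSeq also places the lncRNA gene *Gm52035* over this region. *Rfesd*, which likewise has no region of its own, had 310 ± 54.1 and 314 ± 46.8 normalized counts in *Dis3* cKO and control (log2 fold change -0.02, adjusted p = 0.959 by edgeR).

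*Gm8900* (chr16:55940712-55943711, minus strand) lies 5857 bases from the start of *Cep97*, a gene for a centrosomal protein that restrains cilium assembly. Its region held 6.17, 20.9, 10.1, 6.65 and 7.93 normalized counts in *Dis3* cKO, against 2.80, 1.89, 0, 0 and 0 in control. The log2 fold change of 3.32 (SE 1.02, adjusted p = 0.0109 by edgeR) rested on 5 control reads, and the call was lost without *Dis3* cKO replicate 2, at 2.89. The mRNA of *Cep97* had 692.3 to 848.0 normalized counts in *Dis3* cKO and 659.4 to 678.7 in control, without overlap, at a log2 fold change of 0.18 that did not pass the test (adjusted p = 0.169 by edgeR).

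*Gm13450* (chr2:34964905-34967904, minus strand) held 11.1, 18.04, 20.1, 9.97 and 15.9 normalized counts in *Dis3* cKO, against 4.66, 0.943, 0, 1.92 and 0 in control. The groups did not overlap (log2 fold change 3.24, SE 0.81, adjusted p = 0.000941 by edgeR). The start of *Traf1*, an adaptor of tumour necrosis factor receptors, lies 3133 bases away in the same layout, with 36.6 ± 21.0 and 37.2 ± 16.1 normalized counts of its mRNA in *Dis3* cKO and control, and RefSeq places the lncRNA gene *Gm52552* over the region. *Gm38334* held 28.4, 10.4, 11.2, 9.97 and 13.6 normalized counts in *Dis3* cKO, against 4.66, 2.83, 4.199, 0 and 1.84 in control (adjusted p = 0.0128 by edgeR). Its groups did not overlap. The nearest other gene is the lncRNA gene *5031434O11Rik*, which ends 4307 bases from the region. It had 40.5 ± 14.7 and 35.5 ± 6.9 normalized counts in *Dis3* cKO and control (log2 fold change 0.18, adjusted p = 0.746 by edgeR). The start of *Setd7*, a lysine methyltransferase gene, lies 10545 bases off. The mRNA of *Setd7* rose by 0.31 on the log2 scale, with 2163 ± 280 normalized counts in *Dis3* cKO and 1740 ± 114.5 in control (SD, n = 5 each, adjusted p = 0.0446 by edgeR).

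The 3 best covered regions called higher had overlapping groups. *Gm13878* (chr2:103811618-103814617, minus strand) held 107.4, 79.8, 96.1, 39.9 and 49.8 normalized counts in *Dis3* cKO, against 36.4, 49.96, 42.8, 38.3 and 28.5 in control. *Dis3* cKO replicates 1 to 3 lay above every control library and replicates 4 and 5 did not (log2 fold change 0.93, SE 0.30, adjusted p = 0.0174 by edgeR; 1.13 within replicates 1 to 3 and 0.43 within replicates 4 and 5). The lncRNA gene *4930547E08Rik* starts 996 bases from it.

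*Gm6443* held 51.8, 56.0, 49.2, 23.3 and 40.8 normalized counts in *Dis3* cKO, against 26.1, 11.3, 18.5, 21.1 and 8.27 in control. Only *Dis3* cKO replicate 4 fell within the control range (log2 fold change 1.37, SE 0.37, adjusted p = 0.00289 by edgeR). RefSeq places the tRNA gene *n-TCgca57* over this region. For *Gm29815* there were 51.8, 29.4, 39.1, 24.4 and 21.5 normalized counts in *Dis3* cKO, against 20.5, 12.3, 21.8, 12.5 and 5.51 in control, with *Dis3* cKO replicate 5 just inside the control range (log2 fold change 1.18, SE 0.41, adjusted p = 0.0328 by edgeR).

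For 6 of the 17 the control libraries held at most 3 reads together, so that the size of the change is poorly known. *Gm7935* had 6, 7, 8, 9 and 9 reads in *Dis3* cKO, against 1, 1, 1, 0 and 0 in control, a ratio of 15.6 with a 95% exact counting interval of 4.96 to 79.0. *Gm2189* had 7, 5, 4, 10 and 9 reads in *Dis3* cKO, against 2, 0, 1, 0 and 0 in control, a ratio of 14.01 (4.42 to 71.2). The groups did not overlap in these 2 regions, and every *Dis3* cKO library contributed. *Gm11625* had 9, 7, 4, 2 and 12 reads in *Dis3* cKO, against 3 reads in 1 control library and 0 in the others, a ratio of 13.6 (4.28 to 69.3).

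In the other 3 of these 6, a few *Dis3* cKO libraries held most reads. *Gm48813* had 7, 2, 1, 22 and 9 reads in *Dis3* cKO, against 2 reads in all of control, a ratio of 24.6 (6.39 to 210.1). *Gm5405* had 12, 3, 0, 1 and 13 reads in *Dis3* cKO, against 1 read in all of control, a ratio of 34.8 (5.77 to 1422). *Gm8182* had 21, 1, 0, 2 and 8 reads in *Dis3* cKO, against 2 reads in all of control, a ratio of 19.2 (4.90 to 165.5), and it was the 1 region of the 17 whose exact permutation p was above 0.05 (p = 0.0873, two-sided). The intervals cover counting error only, and reads made by PCR are not independent molecules.

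**Figure D4:**
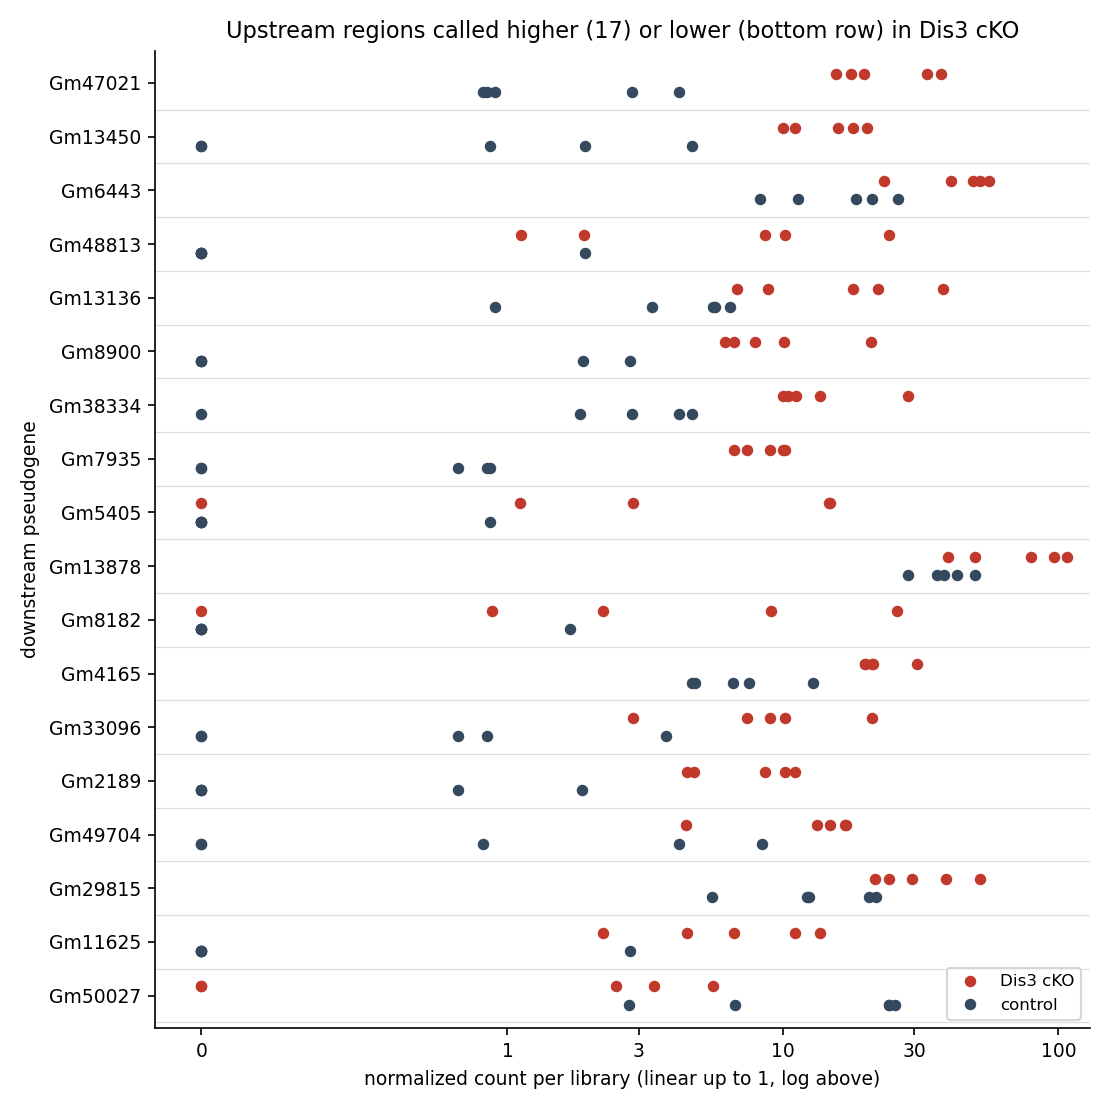
Normalized counts per library (horizontal axis, linear up to 1 and log above) for the 18 called regions, named by the downstream pseudogene, with *Dis3* cKO in red above control in grey. *Gm47021* at the top shows 15.7 to 37.4 in *Dis3* cKO and 0.919 to 4.199 in control, and *Gm50027* at the bottom is the region called lower.

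The remaining calls were spread over different settings. *Gm13136* held 22.2, 18.04, 38.0, 8.86 and 6.79 normalized counts in *Dis3* cKO, against 5.59, 5.66, 3.36, 0.959 and 6.43 in control (log2 fold change 2.06, SE 0.61, adjusted p = 0.00814 by edgeR). It was the only called region whose downstream pseudogene was itself called, at 1.32 on the log2 scale in the sense direction (adjusted p = 0.017 by edgeR). *Gm33096* held 2.85 to 21.1 normalized counts in *Dis3* cKO and 0 to 3.77 in control, and *Gm49704* held 4.43 to 16.99 and 0 to 8.39. Both overlapped between the groups, and RefSeq places the lncRNA gene *Gm35714* over the region of *Gm49704*. Of the coding genes nearest to called regions, *Sod1*, which encodes a superoxide dismutase and starts 22607 bases from *Gm49704*, fell by 0.47 as an mRNA (adjusted p = 0.025 by edgeR), and *Tfrc*, the transferrin receptor gene 14011 bases from *Gm5405*, fell by 0.44 (adjusted p = 0.0167 by edgeR).

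Of the 17 calls, 4 (*Gm47021*, *Gm13450*, *Gm6443* and *Gm7935*) held without each of the 10 libraries and 10 were lost without at least 1. The other 3 rested on few libraries and could not be tested without them, since the regions then fell below the filter. These were *Gm48813* without *Dis3* cKO replicate 4, and *Gm5405* and *Gm8182* without *Dis3* cKO replicate 1 or 5. The call of *Gm13136* was lost without *Dis3* cKO replicate 3 (log2 fold change 1.64) and that of *Gm38334* without *Dis3* cKO replicate 1 (2.004). The call of *Gm13878* was lost without *Dis3* cKO replicate 1 (0.76), *Dis3* cKO replicate 3 (0.82) or control replicate 5 (0.83), and that of *Gm33096* without *Dis3* cKO replicate 4 (2.60), control replicate 4 (2.77) or control replicate 5 (2.76). A further 4 each lost the call without any of several libraries. *Gm2189* lost its call without *Dis3* cKO replicate 1, 4 or 5 or control replicate 2, 4 or 5, *Gm49704* without *Dis3* cKO replicate 1, 2, 3 or 5 or control replicate 2, 4 or 5, *Gm29815* without *Dis3* cKO replicate 1, 2 or 3 or control replicate 2, 4 or 5, and *Gm11625* without *Dis3* cKO replicate 1 or 2 or control replicate 2, 3, 4 or 5. With 1 library left out the fold changes were positive wherever the region was tested, which *Gm11625* was not without *Dis3* cKO replicate 5, at 3.29 to 4.51, 1.93 to 3.20, 0.97 to 1.39 and 3.23 to 5.94 for *Gm2189*, *Gm49704*, *Gm29815* and *Gm11625*.

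The 1 region called lower lies upstream of *Gm50027*. It held 2.47, 0, 5.59, 0 and 3.40 normalized counts in *Dis3* cKO, against 24.2, 25.4, 24.3, 6.71 and 2.76 in control. Control replicates 1 to 3 were high and control replicate 5 lay within the *Dis3* cKO range, so that the groups overlapped. The log2 fold change was -2.83 (SE 0.73, adjusted p = 0.00151 by edgeR, exact permutation p = 0.0238), and within replicates 4 and 5 it was -1.41 and no longer past the threshold. The nearest other annotated gene, the small nuclear RNA gene *Gm24292*, is 9653 bases away.

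The 10 regions with the highest level were a different set, and none of them was called with the scaling by gene counts. Scaled by the TMM-scaled totals of the upstream regions, *Gm36985*, *Gm6863* and *Gm5064* were called lower by edgeR, at log2 fold changes of -0.89, -0.85 and -0.80. The highest lies upstream of *Gm36985* (chr3:60857707-60860706, plus strand), with 366.6, 536.5, 549.0, 450.8 and 484.7 normalized counts in *Dis3* cKO, against 546.1, 713.6, 429.1, 618.2 and 567.8 in control (log2 fold change -0.27, SE 0.16, adjusted p = 0.377 by edgeR). RefSeq places the lncRNA gene *Gm553061* over it. The groups overlapped, and this single region held more reads than any other of the class in each library.

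Several of the others lie where a coding gene of the opposite strand ends towards the region. Transcription running past the 3′ end of that gene would enter the region on the counted strand. Whether the reads came from such transcription was not tested. *Gm18329* (chr9:37272260-37275259, plus strand) begins 576 bases from the annotated 3′ end of *Ccdc15*, which RefSeq extends over the region, and held 175.3, 185.1, 185.6, 180.6 and 206.1 normalized counts in *Dis3* cKO, against 146.3, 180.04, 147.8, 184.0 and 189.3 in control (log2 fold change 0.14, SE 0.22, adjusted p = 0.843 by edgeR). *Gm36796* (chr16:22241168-22244167, plus strand) lies 382 bases from the 3′ end of *Tra2b*, a gene for a splicing regulator, and held 164.2, 123.4, 149.8, 150.7 and 124.6 in *Dis3* cKO, against 161.2, 170.6, 159.6, 129.4 and 141.5 in control (log2 fold change -0.10, SE 0.23, adjusted p = 0.905 by edgeR). *Gm49863*, 1912 bases from the 3′ end of *Heatr5b*, gave a log2 fold change of 0.34 (adjusted p = 0.562 by edgeR), *Rpl26-ps6*, 4114 bases from that of *Oaf*, gave 0.31 (adjusted p = 0.622 by edgeR) and *Gm7039*, 3375 bases from that of *Smim10l1*, gave 0.11 (adjusted p = 0.909 by edgeR). The libraries of both genotypes overlapped in all of these regions. Of their neighbours, *Ccdc15* and *Heatr5b* rose as mRNAs, by 0.26 (adjusted p = 0.0195 by edgeR) and 0.32 (adjusted p = 0.0182).

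The region upstream of *Gm6863* was set apart by replicate number more than by genotype. It held 114.8, 158.6, 175.5, 33.2 and 40.8 normalized counts in *Dis3* cKO, against 217.1, 227.2, 152.0, 50.8 and 31.2 in control (log2 fold change -0.37, SE 0.24, adjusted p = 0.429 by edgeR). Replicates 4 and 5 of both genotypes lay below all of replicates 1 to 3. Its pseudogene, at a mean of 2873 normalized counts, gave a log2 fold change of -0.11 (adjusted p = 0.578 by edgeR). The other 3 of the 10 highest regions, upstream of *Gm5064*, *Gm13141* and *Gm5224*, had means of 205.2, 118.1 and 85.4 normalized counts, log2 fold changes of -0.05, 0.21 and 0.35 and adjusted p-values of 0.95, 0.744 and 0.524 by edgeR.

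The position of a region relative to expressed coding genes was compared over all 5869 members, tested or not. A coding gene counted as expressed at 1 or more reads per kb of exon for every 1000000 gene counts. Where the 3′ end of such a gene on the opposite strand lay within 5000 bases on the pseudogene side, the median level was 4.83 normalized counts (71 regions), against 2.75 at 5000 to 20000 bases (217 regions) and 2.12 farther away (5581 regions). A mean of at least 10 counts was reached by 25.4%, 10.1% and 1.08% of these regions. By edgeR 0 of the 52 tested regions in the nearest group were called higher (1 at an unadjusted p under 0.05, and 1 by DESeq2), and their median log2 fold change was 0.18. Where instead an expressed coding gene started within 5000 bases on the pseudogene strand, as with *Mtr* and *Rfesd*, the median level was 3.28 (78 regions), against 2.57 at 5000 to 20000 bases (289 regions) and 2.13 farther away (5502 regions). Of the tested regions in these 3 groups, 2 of 44 (4.55%), 3 of 114 (2.63%) and 12 of 1548 (0.775%) were called higher, against 13.6% of all tested regions. The 2 are the regions of *Gm47021* and *Gm4165*, already described because they were called. At an unadjusted p under 0.05 by edgeR 3, 8 and 51 were higher, and DESeq2 called 3, 6 and 19 higher. With a start on the far side of the region, the medians were 2.66, 2.68 and 2.12, and edgeR called 0 of 52 (1 at an unadjusted p under 0.05, and 1 by DESeq2), 2 of 101 and 15 of 1553. These groups are a description and were not tested against each other.

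Most regions lie well away from other genes. The median distance to the nearest other gene was 14532 bases, against 11677 for all upstream regions, and 4 of the regions overlapped another upstream region. At least 5000 bases separated 4406 regions (75.1%) from any other gene in the table, and their median level of 2.15 normalized counts was close to the 2.19 of the 1463 nearer ones, although a mean of at least 10 counts was reached by 1.13% and 3.42%. RefSeq placed another gene over 465 regions (7.92%). Of the 17 regions called higher, 10 had no other gene within 5000 bases.

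By chromosome, the 666 regions on the X had a median level of 1.17 normalized counts and the 59 on the Y a median of 0, while the 19 autosomes had medians from 1.71 (chromosome 7) to 2.65 (chromosome 16). The X and the Y are each present in 1 copy in these male mice, and the part of copy number in these levels was not tested. With the 10 highest regions left out, the mean count of X regions was 0.545, 0.637, 0.685, 0.598 and 0.556 times that of autosomal regions in *Dis3* cKO, against 0.604, 0.551, 0.612, 0.541 and 0.590 times in control. The groups overlapped. Coding regions on the X, with no region left out, stood at 0.374 to 0.411 times the autosomal ones in *Dis3* cKO and 0.379 to 0.439 times in control. The X level relative to the autosomes was thus higher over pseudogene regions than over coding regions in all 10 libraries.

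The downstream pseudogenes themselves were also counted in the sense direction. Of 5510 that are in the gene table under the same ID, 791 passed the filter for genes, 6 were called higher and 15 lower, and their median log2 fold change was -0.09. Over all genes tested 7.90% were called in either direction. Whether the split between higher and lower differs from that of all genes was not tested. At an unadjusted p under 0.05, 25 were higher and 58 lower. Only 2 of the pseudogenes tested had a called region, *Gm13136* and *Gm7935*, and *Gm7935* gave a sense log2 fold change of 0.02 (adjusted p = 0.978 by edgeR). The regions of *Gm44389* and *Gm7002*, whose sense RNA fell by 4.13 and 2.38 on the log2 scale (adjusted p = 1.51e-05 and 1.07e-05 by edgeR), held few antisense reads in either genotype. There were 7, 2, 2, 2 and 4 reads upstream of *Gm44389* in *Dis3* cKO, against 10, 10, 1, 7 and 0 in control (log2 fold change -0.43, adjusted p = 0.906 by edgeR), and the region of *Gm7002* was below the filter. Many processed pseudogenes closely resemble their parent genes, so that the sense counts of a pseudogene are uncertain.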

How the data were processed

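The deposited tables hold raw counts that the authors made with cutadapt, HISAT2 and featureCounts 1.6.4, on the gene's strand over exons and on the opposite strand over upstream regions of 3000 bases (22 of the 30166 regions lie over another gene of the same strand in the gene table, 4 of them upstream of processed pseudogenes). By featureCounts' defaults, reads that align to several places are left out. Coordinates are those of GRCm38, as in the file headers (GRCm38.p5 in the submitters' processing notes), although the methods name GRCm39. Gene IDs were looked up in GENCODE M39 for biotypes and symbols, which gave a biotype to 28745 of 30166 regions. Promoter windows and overlapping genes come from RefSeq on GRCm38.p6.

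Regions averaging at least 3 counts were tested with edgeR 4.0.16 (quasi-likelihood, two-sided, Benjamini-Hochberg, threshold 0.05) in R 4.3.3, with *Dis3* cKO against control as the sole term and scaling by the TMM-normalized totals of the gene table. Genes were filtered by filterByExpr (min.count of 10). The replicates are different mice. Normalized counts are scaled to the mean library of 34696643 counts. Single values were also compared by exact permutation tests. The procedure was tested on simulated data. Alternatives included DESeq2 1.42.0, other scalings and filters, and leaving out libraries. The rule for naming takes called regions at 20 or more normalized counts without overlap, the regions called lower, the 10 highest and 5 high uncalled regions; all others were named after their values were seen. The regions, lists and rules were chosen with earlier results of these data known.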

Additional observations from a re-analysis of the deposited data

Results flagged for a closer look

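In 10 of 102 groups of 5 libraries examined, 1 library stood apart by Dixon's test. Chance gives about 1 in 20 for normally distributed values, but many of these groups hold counts near 0. In the control groups of *Gm48813*, *Gm5405*, *Gm8182* and *Gm11625* every other library held 0, so any read would set 1 library apart. Regions called higher were also taken up after their values were seen, so the 10 cannot be compared with that rate. *Dis3* cKO replicate 1 was the highest of its group for the density over coding regions, at 159.2 reads per Mb for every 1000000 gene counts, and for the *Gm38334* region, at 28.4 normalized counts, and it was the lowest for the *Rpl26-ps6* region, at 67.9. *Dis3* cKO replicate 2 was the highest for *Gm8900*, at 20.9, and *Dis3* cKO replicate 5 for *Gm4165*, at 30.6. In the control group replicate 1 was the highest for *Gm11625*, at 2.80, replicate 2 for *Gm5405* and *Gm33096*, at 0.943 and 3.77, replicate 3 for *Gm8182*, at 1.68, and replicate 4 for *Gm48813*, at 1.92. These control values amount to 1 to 4 reads.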

How the results depend on the processing

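The count of 17 regions called higher and 1 called lower became 28 and 3 with DESeq2, of which 13 were among the 17. It became 2 and 18 when the regions were scaled by their own TMM-scaled totals. Scaling by the summed pseudogene regions gave 8 and 2, and the background level as a covariate gave 15 and 3. Both of these were chosen after seeing the data. Over all regions tested, 15.9% were called higher with DESeq2 and 5.49% under the regions' own scaling. The shares were 7.18% with scaling by the summed pseudogene regions and 12.7% with the covariate. A filter at a mean of 10 counts gave 9 and 2 of 100 tested, and no filter gave 16 and 1 of 5641. A term for replicates 1 to 3 against 4 and 5 gave 20 and 2 of 1706. In these fits 49.9%, 5.08% and 14.6% of all regions tested were called higher, in the same order. Within replicates 1 to 3 there were 5 and 2 of 2042, against 10.8% of all regions called higher. Within replicates 4 and 5, which hold 2 libraries a group, there were 4 and 0 of 1557 by edgeR (7 lower at an unadjusted p under 0.05). Of all regions 3.85% were called higher there. Regions at least 5000 bases from other genes gave 10 of the 17. With 1 library left out, 10 to 21 were higher and 1 to 3 lower. The median log2 fold change was -0.34 under the regions' own scaling and 1.07 within replicates 4 and 5, and ranged from 0.06 to 0.48 with 1 library left out. The log2 ratio of the summed level was -0.58 when scaled by the coding regions and 0.91 within replicates 4 and 5, and the difference in the share of regions with a read was 23.6 percentage points there and -6.18 within replicates 1 to 3. The labels tie no replicate number to a litter or batch, so same-numbered libraries were not taken as pairs. Their deviations from the group means correlated at 0.083 to 0.183, with 3 of the 5 above 0.1. Libraries of unlike number were not compared in this way, so these values do not decide whether pairs exist. With the replicate block 14 regions were higher and 1 lower, against 13.2% of all regions called higher. Signs of uncalled regions turned. Under the regions' own scaling the log2 fold changes were -0.53 for *Gm18329*, -0.37 for *Gm13141*, -0.32 for *Gm5224*, -0.34 for *Gm49863*, -0.33 for *Rpl26-ps6* and -0.58 for *Gm7039*, and *Gm36985*, *Gm5064* and *Gm6863* were called lower, at -0.89, -0.80 and -0.85. Scaled by the summed pseudogene regions they were -0.17 for *Gm18329*, -0.0324 for *Gm49863* and -0.25 for *Gm7039*. *Gm5064* was at 0.14 within replicates 1 to 3 and between -0.18 and 0.0636 with 1 library left out, *Gm7039* between -0.0021 and 0.21, and *Gm36796* at 0.0303 within replicates 4 and 5. The cause of these shifts was not tested. No called region changed sign in a fit that tested it. The median region held 0 to 3 reads per library, and the common biological coefficient of variation was 0.69. How far this limited the calls is not reported here. At a mean from 3 to below 10 counts 0.685% of pseudogene regions were called higher, against 4.91% of coding regions.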
